A study of Brassica rapa subsp. pekinensis with 8 samples.

Results

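The fatty acid and lipid desaturase genes of Chinese cabbage (Brassica rapa subsp. pekinensis) were followed across 2 inbred lines and 2 days of vernalization. They were chosen from the deposited gene table as the rows whose Arabidopsis-based description contains the word desaturase. Of 48 such rows, 3 that named phytoene or carotene desaturases, enzymes of pigment synthesis, were left out, and 45 genes of 38008 remained. By their Arabidopsis loci they belong to 8 families: FAD2 (1 gene), FAD3 (3), FAD4 (3), FAD5 with the related ADS genes (18), FAD6 (3), FAD7 and FAD8 (4), soluble acyl-ACP desaturases (8) and sphingolipid desaturases (5). The deposited domain annotation was checked against this label. It lists the membrane fatty acid desaturase domain PF00487 for 33 of the 45 genes, the acyl-ACP desaturase domain PF03405 for 7 and the lipid desaturase domain PF10520 for the 3 FAD4 genes, and it lists no domain for 2 (Bra015493 and Bra014709). Genes of sterol C-5 desaturation whose description does not use the word were not chosen by this rule.

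Desaturases put double bonds into the acyl chains of lipids, and a membrane with more double bonds stays fluid at a lower temperature. In plants the first double bond of a common chain is made in the plastid by soluble acyl-ACP desaturases such as FAB2. Further ones are added to chains already bound in membrane lipids, in the endoplasmic reticulum by FAD2 and FAD3 and in the plastid by FAD6 to FAD8. FAD4 and FAD5 act on palmitoyl chains of plastid lipids. The ADS family is related to FAD5 and acts on saturated chains, and the SLD enzymes act on the long-chain bases of sphingolipids. In Arabidopsis, ADS2 is known for a role in tolerance of chilling and freezing, and FAD8 is the plastid enzyme known for its dependence on temperature.

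Line “50” bolts late and line “4004” bolts early. RNA was taken from shoots of young plants before cold (0D Ver, here day 0) or after 35 days in a cold room (35D Ver, here day 35), several plants being pooled per sample. The day 35 plants were also older and had a shorter daily light period, and the sources name no RNA from plants kept warm to that age, so cold, day length and age cannot be told apart. There were 3 libraries of line “50” per day (replicates 1, 2 and 3) and 1 library of line “4004” per day (replicate 3), and replicates 1 and 2 of line “4004” were not analysed here.

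The libraries held 18.3 to 27.1 M counts. The labels name leaf where the methods name shoots, and the markers present were those of green tissue: 6 of 8 leaf markers matched a gene, with a summed normalized read count of 617323 to 1791442 per library, against 18 to 68 for root, 13 to 145 for seed and 27 to 66 for flower markers (the root hair markers RHD6 and EXP7 had no reads). Replicate 3 of line “50” stood apart from replicates 1 and 2 on both days: chi-square per degree of freedom between libraries of 1 group was 6.58 to 15.24 for replicates 1 and 2 and 91.11 to 176.13 for pairs that include replicate 3. The desaturase genes made up 0.206 to 0.224% of the counts of replicates 1 and 2 of line “50”, and 0.151 to 0.17% of the 4 libraries numbered 3, both lines included. Since line “4004” is represented only by libraries numbered 3, results on the lines are also given without replicate 3 of line “50” or against it alone.

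Levels are given as deposited normalized read counts, in the order of replicates 1, 2 and 3. A raw value of 1 stands for no reads, because the lowest value was 1 in every library. A gene was called at an edgeR quasi-likelihood adjusted p under 0.05 and a log2 fold change of at least 1 in size. Of the 45 desaturase genes, 43 passed the filter on low counts and were tested. The exceptions were the FAD4 copy Bra010417, whose highest normalized read count was 8, and Bra029531, the counterpart of the sphingolipid desaturase DES-1-like, which had no reads in any library.

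The genes that differed most were the 4 assigned to AT3G15870, a relative of FAD5. Bra027096 had 2082, 2215 and 3064 normalized read counts in line “50” at day 0 and 12, 19 and 13 at day 35. Bra001610 had 490, 488 and 516 at day 0 and 3, 7 and 4 at day 35. Bra001612 had 452, 446 and 493 at day 0 and 4, 6 and 5 at day 35. The day 0 libraries of these genes were close to each other and far above every day 35 library. Bra001611, the least counted, had 164, 168 and 116 at day 0 and 1, 3 and 3 at day 35, which is between 1 and 3 reads. Neither library of line “4004” came near the day 0 level of line “50”: Bra027096 and Bra001611 had no reads on either day, and Bra001610 and Bra001612 had 1 and 2 reads at day 0 and none at day 35.

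**Figure D1:**
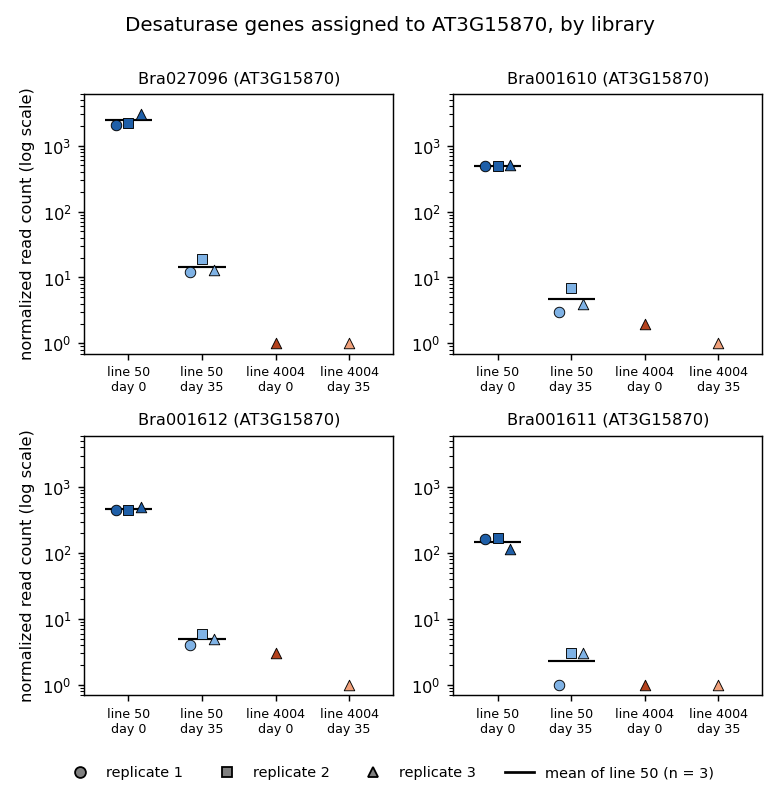
Normalized read counts (log scale) of the 4 genes assigned to AT3G15870 in each library of line “50” and line “4004” at day 0 and day 35. Symbols mark the replicate and bars the mean of the 3 line “50” libraries; a value of 1 stands for no reads. The line “50” day 0 libraries sit between 116 and 3064, and every other library is at 19 or below.

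All 4 genes fell in line “50” between day 0 and day 35. At day 35 the mean of Bra027096 was 167-fold lower, a log2 fold change of -7.36 ± 0.40 SE with an edgeR adjusted p of 0.0037. Those of Bra001610, Bra001612 and Bra001611 were 107-fold (-6.57 ± 0.41), 92.7-fold (-6.47 ± 0.36) and 64.0-fold lower (-5.68 ± 0.46), with edgeR adjusted p of 0.0037 to 0.0044. Taken by same-numbered pairs of libraries, the day 0 value was at least 38.7 times the day 35 value for each of the 4 genes. The IDs of Bra001610, Bra001611 and Bra001612 are consecutive and follow that of a FAD5 copy, Bra001609, and reads shared between near-identical copies could have been split among them by the counting, so the single values are uncertain. Their sum does not depend on such a split among the 4: it was 3188, 3317 and 4189 at day 0 and 20, 35 and 25 at day 35, a 134-fold difference of means, and 7 and 4 in line “4004”, where 4 is the sum with no reads at all. In bulk tissue, fewer cells of a type and less RNA per cell cannot be told apart.

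Between the lines at day 0, the 4 genes were also called, all lower in line “4004”. Against a floor of 3 counts in the line “4004” library, Bra027096 was at least 826-fold lower (edgeR adjusted p = 0.0049) and Bra001611 at least 50.3-fold lower (adjusted p = 0.015). For Bra001610 the ratio of line “50” to line “4004” was 503 with a 95% Poisson interval of 90.3 to 19900 (adjusted p = 0.0081), and for Bra001612 it was 234 with an interval of 64.8 to 1930 (adjusted p = 0.007). These intervals and floors cover counting error only. This comparison uses the same line “50” day 0 libraries as the one between days, so the 2 sets of values are not independent.

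At day 35 all 4 genes were without reads in line “4004” and low in line “50”. Bra027096 was at least 5.02-fold lower in line “4004” (edgeR adjusted p = 0.18, not called) and was called without replicate 3 (adjusted p = 0.01). For Bra001610 and Bra001612 the bounds were 1.60-fold and 1.71-fold (adjusted p = 0.69 for both). The test of the difference between the lines' responses to vernalization gave Bra027096 an unadjusted p of 0.0069 and an edgeR adjusted p of 1, and it called no gene of the whole table.

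These calls depended on replicates 1 and 2 of line “50” and not on replicate 3. Without replicate 3 all 4 genes stayed called, with an edgeR adjusted p of 8.4e-05 to 0.00021 between days and 0.00017 to 0.00041 between lines at day 0. With any single library left out the 4 stayed called between days, while between lines Bra001610, Bra001611 and Bra001612 lost the call without the day 0 library of replicate 1 or 2 (adjusted p = 0.057 to 0.092). With replicate 1 or replicate 2 left out on both days, the adjusted p of the 4 genes between days was 0.067 to 0.17 and that between lines at day 0 was 0.065 to 0.21, and no gene of the whole table was called between days in line “50”. The log2 fold changes between days stayed between -7.68 and -5.25 over every library or replicate left out.

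Over all 43 desaturase genes tested, 6 were called between days in line “50”, all lower at day 35. Of all 31191 genes tested, 3.92% were called in either direction and 1.69% as lower. The median log2 fold change of the desaturase genes was -0.25 (28 negative and 15 positive), against 0.01 over all genes. With the replicate number as a block, since replicate 3 deviated alike on both days, 9 desaturase genes were called (15.6% of all genes), all lower. Without replicate 3, 10 were called (20.4% of all genes), all lower. Without replicate 1 or 2 there was no call, with 6 desaturase genes at an unadjusted p under 0.05 in each case, where 7.32% and 7.55% of all genes were. All 6 called genes belong to the FAD5 and ADS family, which has 18 tested genes.

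The other 2 calls were Bra030650 and Bra015493, ADS genes of a neighbouring pair of Arabidopsis loci, AT1G06360 and AT1G06350 (ADS4). Bra030650 had 649, 869 and 557 normalized read counts in line “50” at day 0 and 144, 182 and 239 at day 35 (log2 fold change -1.84 ± 0.32 SE, edgeR adjusted p = 0.031). Bra015493 had 221, 299 and 168 at day 0 and 46, 65 and 81 at day 35 (-1.82 ± 0.36, adjusted p = 0.044). Neither gene's days overlapped. The adjusted p of Bra030650 was 0.12 to 0.49 without replicate 1 or replicate 2 on either day or both. That of Bra015493 was 0.052 to 0.62 without any single library other than replicate 3 of day 35, or without replicate 1 or 2 on both days, and 0.058 with library totals in place of TMM factors. A second ADS4 copy, Bra030649, had 156, 196 and 215 at day 0 and 32, 45 and 111 at day 35 (-1.56 ± 0.55, adjusted p = 0.17). The replicate block (-1.76, adjusted p = 0.015) called it, as did the fit without replicate 3 (-2.18, adjusted p = 0.0013).

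In line “4004” these 3 genes were low on both days. Bra030650 had 203 and 166 normalized read counts at day 0 and day 35 (95% Poisson intervals 176.2 to 232.7 and 142.6 to 193.4), Bra015493 had 67 and 59, and Bra030649 had 68 and 50. The line “4004” day 0 library thus lay below all 3 line “50” day 0 libraries and inside the range of the day 35 libraries. The edgeR log2 fold changes of line “4004” against line “50” at day 0 were -1.81 ± 0.48 SE for Bra030650 (adjusted p = 0.15), -1.81 ± 0.55 for Bra015493 (adjusted p = 0.21) and -1.53 ± 0.82 for Bra030649 (adjusted p = 0.50), none called. DESeq2 called Bra030650 (adjusted p = 0.015) and Bra015493 (adjusted p = 0.033), and the replicate block called Bra030650 (adjusted p = 0.047). Without replicate 3, the difference between the lines' responses was called for Bra030650 (1.91, adjusted p = 0.032) and Bra015493 (2.04, adjusted p = 0.046).

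The 4 genes assigned to AT1G06090, a close relative of ADS1, were at low levels and had no call between days in the edgeR fit of all 8 libraries; their calls between lines are given with that comparison. Bra015473 had 77, 85 and 104 normalized read counts at day 0 and 50, 48 and 9 at day 35 in line “50”, and 34 and 29 in line “4004”. For all 4 the line “50” days did not overlap, with log2 fold changes of -1.30 to -0.59 and edgeR adjusted p of 0.18 to 0.41. Summed over the 4 copies, line “50” had 265, 310 and 317 at day 0 and 182, 174 and 58 at day 35, and line “4004” had 121 and 89.

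ADS1 and ADS2 genes had higher values at day 35, without a call. The ADS1 gene Bra015472 had 221, 228 and 124 normalized read counts at day 0 and 335, 317 and 357 at day 35 in line “50” (log2 fold change 0.84 ± 0.28 SE, edgeR adjusted p = 0.15), while line “4004” had 121 and 317. The ADS2 gene Bra021736 had 1300, 1623 and 1232 at day 0 and 2171, 2168 and 2506 at day 35 (0.75 ± 0.24, adjusted p = 0.14), and 1441 and 2197 in line “4004”. Bra018251, also ADS2, had 945, 1141 and 828 at day 0 and 1435, 1422 and 1621 at day 35 (0.65 ± 0.23, adjusted p = 0.17), and 962 and 1357 in line “4004”. Every day 35 library of line “50” was above every day 0 library for these 3 genes and for the third ADS2 copy, Bra022837 (0.48 ± 0.25, adjusted p = 0.34). Summed over the 3 ADS2 copies, the mean of line “50” was 3669.0 ± 460.3 (SD, n = 3) at day 0 and 5573.0 ± 598.5 at day 35, 1.52-fold, and line “4004” had 3881 and 5174, 1.33-fold. At day 0 the lines were close in all 3 ADS2 copies, with log2 fold changes of -0.06 to 0.12.

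**Figure D2:**
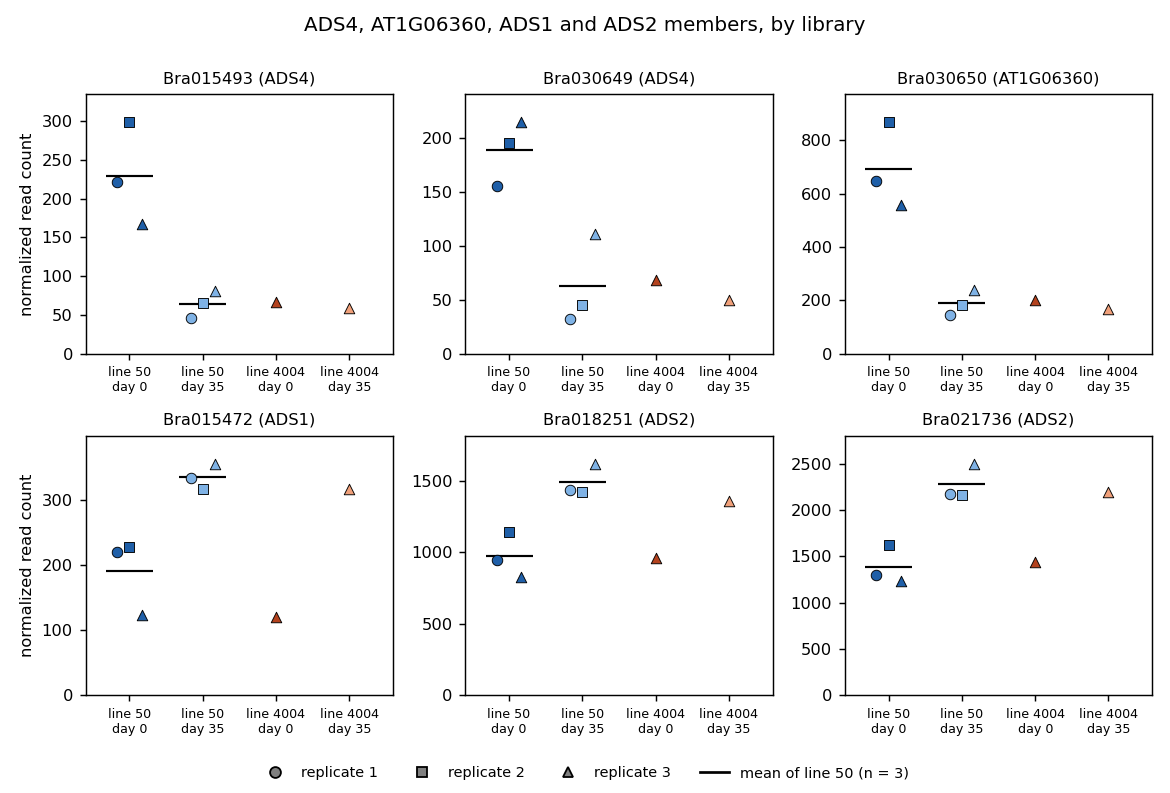
Normalized read counts of 6 ADS genes in each library of line “50” and line “4004” at day 0 and day 35, on linear axes from 0 that differ between panels. Symbols mark the replicate and bars the mean of the 3 line “50” libraries. In the upper row (Bra015493, Bra030649, Bra030650) the line “50” day 0 libraries lie above all the others; in the lower row (Bra015472, Bra018251, Bra021736) the day 35 libraries of both lines lie above the day 0 libraries.

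Counted over all 43 desaturase genes tested, the line “50” libraries of the days did not overlap in 20, 15 of them lower at day 35 and 5 higher, which is 46.5% against 25.2% of all genes tested. On counts scaled to the library total there were 19, 13 lower and 6 higher, against 23.4% of all genes. Beside ADS1 and ADS2, the only other gene that was higher without overlap was the FAB2 copy Bra000321, with 1744, 1663 and 2167 at day 0 and 2351, 2193 and 3787 at day 35.

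FAD5 itself, the plastid enzyme that desaturates the palmitoyl chain of monogalactosyldiacylglycerol, lay below line “50” in line “4004” on both days. Bra027203 had 4981, 4875 and 3869 normalized read counts at day 0 and 3902, 3719 and 3726 at day 35 in line “50” (log2 fold change -0.25 ± 0.23 SE, edgeR adjusted p = 0.61), while line “4004” had 1906 and 2417. The second copy, Bra001609, had 1278, 1263 and 753 at day 0 and 1012, 979 and 869 at day 35, and 506 and 696 in line “4004”. At day 0 the log2 fold change of line “4004” against line “50” was -1.31 ± 0.35 SE for Bra027203 (adjusted p = 0.15) and -1.16 ± 0.36 for Bra001609 (adjusted p = 0.22), neither called. Calls of Bra027203 came with the replicate block (-1.29, adjusted p = 0.048), by DESeq2 (-1.32, adjusted p = 0.0011) and without replicate 3 (-1.38, adjusted p = 0.00053), and its log2 ratio against replicate 3 alone was -1.02.

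Over all desaturase genes, 38 of 43 log2 fold changes between the lines at day 0 were negative, with a median of -0.72 against -0.04 over all genes. With library totals in place of TMM factors, which shifts the median of all genes to 0.19, 31 were negative and the median of the desaturase genes was -0.53. The line “4004” library was below every line “50” library in 26 of the 43 genes, where 22.8% of all genes tested were, and above every one in 4, where 33.0% of all genes were. The leaf markers lay the same way: the median of their 14 tested genes was -1.10, with none called and 4 lower under the replicate block, and their summed normalized read count was 617323 in line “4004” against 917084 to 1791442 in line “50”. Their part in the lower values of the desaturase genes was not tested. Called were the 4 genes assigned to AT3G15870 alone, all lower, where 1.49% of all genes were called and 0.292% as lower. The replicate block called 8 desaturase genes (7.58% of all genes), adding Bra030650, Bra027203, the FAD2 gene Bra034777 and the SLD1 copy Bra003457. DESeq2 also called 8 (5.02% of all genes), adding Bra030650, Bra015493, Bra027203 and the AT1G06090 relative Bra032437. Without replicate 3 of line “50”, 15 were called (28.0% of all genes), 14 lower, among them the AT1G06090 relatives Bra015473, Bra032437 and Bra032438, and 1 higher, the acyl-ACP desaturase gene Bra039178; without replicate 1 or replicate 2 none was, and with only the day 0 library of replicate 1 or 2 left out Bra027096 was the single call.

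At day 35 no desaturase gene was called between the lines by edgeR, where 0.446% of all genes were. DESeq2 called none either, where it called 433 of the 31191 genes tested. At an unadjusted p under 0.05 there were 6 by edgeR, all lower in line “4004”, where 6.37% of all genes were. The replicate block gave 0.952% of all genes. Without replicate 3 there were 5 desaturase calls (16.4% of all genes), all lower: Bra027096, the AT1G06090 relatives Bra032437 and Bra032438, and the FAD7 genes Bra001392 and Bra034862. The line “4004” library was below every line “50” library in 13 genes, where 16% of all genes were, and above every one in 8, where 26.2% of all genes were. For the difference between the lines' responses there was no call in the whole table (0.0%) in edgeR without or with the block. By edgeR without the block, 5 desaturase genes were at an unadjusted p under 0.05, where 3.06% of all genes were. DESeq2 called 69 of the 31191 genes tested for this difference, none of them a desaturase gene. Without replicate 3 there were 3 calls (6.47% of all genes): Bra015493, Bra030650 and the acyl-ACP desaturase gene Bra008632.

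**Figure D3:**
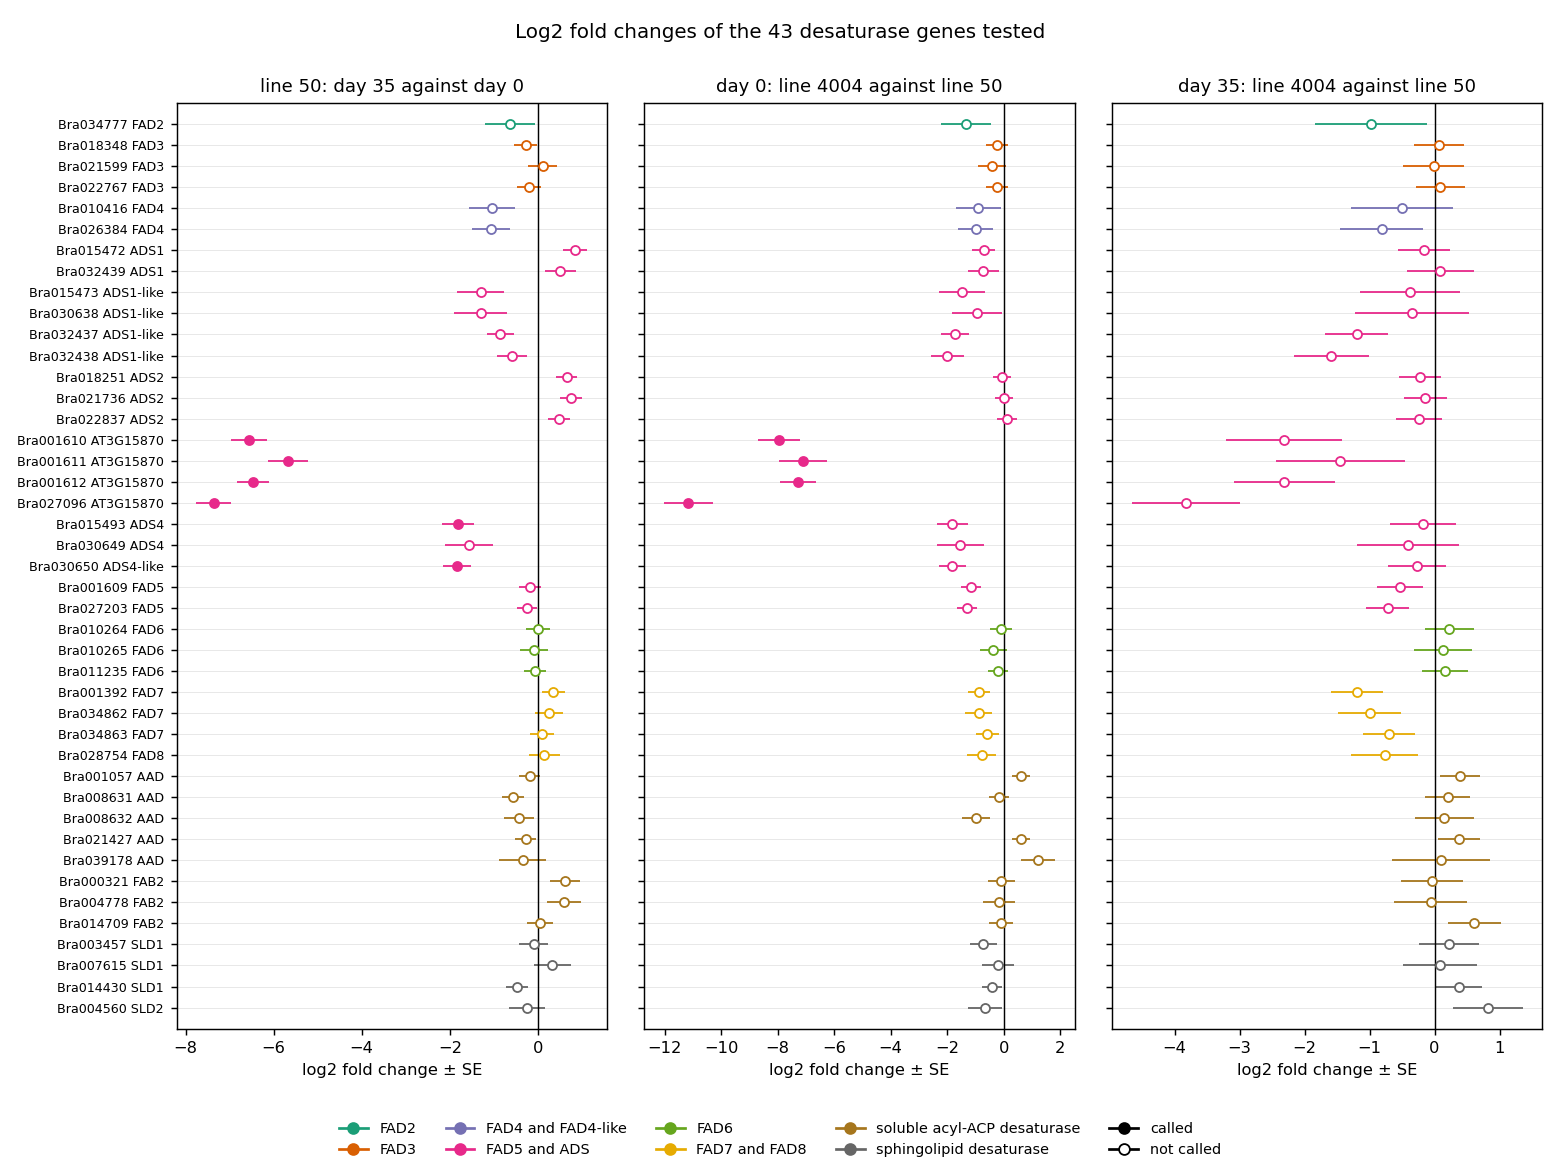
Log2 fold changes with their standard errors (edgeR) of the 43 desaturase genes tested, for day 35 against day 0 in line “50” and for line “4004” against line “50” on each day, coloured by family, with filled points for called genes. The scales differ between panels. The 4 genes assigned to AT3G15870 stand far to the left in the first and second panels, between -11.16 and -5.68 (values of genes without reads in line “4004” depend on the prior count), and the third panel has no filled point.

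FAD2, which makes linoleic acid from oleic acid in the endoplasmic reticulum, is a single gene here, Bra034777. It had 6242, 4109 and 8257 normalized read counts at day 0 and 2300, 2377 and 7045 at day 35 in line “50”, and 2608 and 2153 in line “4004”. Replicate 3 was the highest library on both days, and the days overlapped through it. The log2 fold change between days was -0.63 ± 0.57 SE (edgeR adjusted p = 0.62), and without replicate 3 it was -1.13 and called (adjusted p = 0.0062). Between the lines at day 0 it was -1.32 ± 0.88 (adjusted p = 0.61), and -2.15 under the replicate block, a call (adjusted p = 0.047).

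The 3 FAD3 genes, whose enzyme turns linoleic into linolenic acid in the same membrane, showed no call in any comparison. Bra018348 had 3808, 3089 and 2337 normalized read counts at day 0 and 2815, 2946 and 1793 at day 35 in line “50”, and 2685 and 2756 in line “4004”. Replicate 3 was the lowest library here, the opposite of FAD2. The log2 fold changes between days were -0.28 to 0.11 for the 3 copies, with edgeR adjusted p of 0.65 to 0.91. Both line “4004” libraries were inside the range of line “50” in all 3 copies.

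In the plastid, FAD6 makes the second double bond and FAD7 and FAD8 the third. The FAD6 gene Bra010264 had 3136, 3331 and 2017 normalized read counts at day 0 and 3158, 3267 and 2035 at day 35 in line “50” (log2 fold change 0.01 ± 0.27 SE, edgeR adjusted p = 0.99), while line “4004” had 2691 and 3459. The FAD7 gene Bra001392 had 2796, 2940 and 1971 at day 0 and 3913, 3499 and 2359 at day 35 (0.35 ± 0.26, adjusted p = 0.52), and 1450 and 1476 in line “4004”. The FAD8 gene Bra028754 had 1086, 1106 and 496 at day 0 and 1234, 1040 and 645 at day 35, and 534 and 593 in line “4004”. In all 3 genes replicate 3 was the lowest line “50” library on each day. Summed over the 3 FAD7 copies, line “50” had 6033.3 ± 1380.3 (SD, n = 3) at day 0 and 7013.0 ± 1793.3 at day 35, and line “4004” had 3732 and 3777.

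The place of line “4004” in these plastid genes depended on which line “50” libraries were used. At day 0 the log2 fold change of Bra001392 was -0.87 ± 0.39 SE (edgeR adjusted p = 0.40), and -0.44 against replicate 3 alone. For Bra028754 it was -0.78 ± 0.51 (adjusted p = 0.61), -1.04 and called without replicate 3 (adjusted p = 0.0026), and 0.11 against replicate 3 alone. For the FAD7 copy Bra034862 it was -0.88 ± 0.48 (adjusted p = 0.51), -1.14 and called without replicate 3 (adjusted p = 0.0013), and -0.03 against replicate 3 alone. At day 35 Bra001392 was at -1.20 ± 0.40 (adjusted p = 0.53), -1.36 and called without replicate 3 (adjusted p = 0.0022), and -0.68 against replicate 3 alone.

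**Figure D4:**
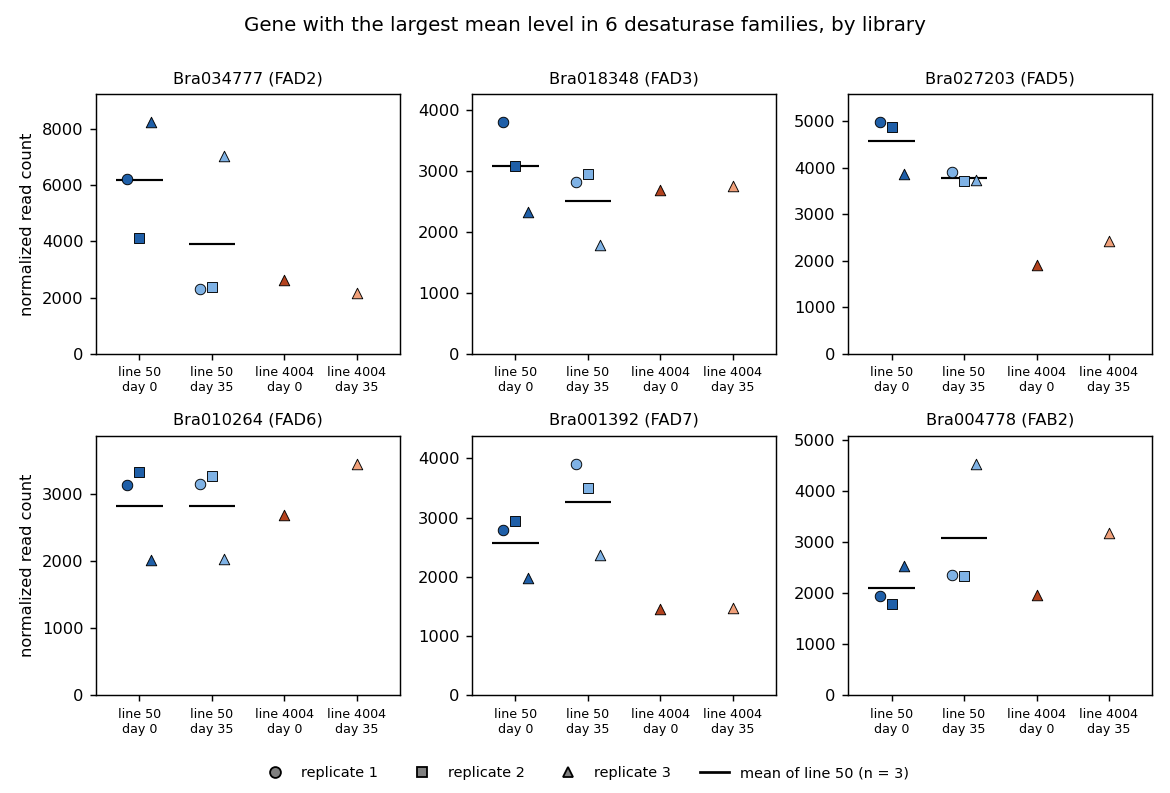
Normalized read counts of the FAD2, FAD3, FAD5, FAD6, FAD7 and FAB2 gene with the largest mean in its family, in each library of line “50” and line “4004” at day 0 and day 35, on linear axes from 0 that differ between panels. Triangles mark replicate 3 and bars the mean of the 3 line “50” libraries. Replicate 3 is the highest line “50” library for Bra034777 and Bra004778 and the lowest for Bra018348, Bra010264 and Bra001392, on both days.

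FAD4 puts the trans double bond into the palmitoyl chain of plastid phosphatidylglycerol. Bra026384 had 164, 180 and 263 normalized read counts at day 0 and 99, 58 and 132 at day 35 in line “50” (log2 fold change -1.06 ± 0.43 SE, edgeR adjusted p = 0.23), while line “4004” had 107 and 58. Its days did not overlap. Bra010416 had 73, 89 and 152 at day 0 and 49, 26 and 76 at day 35 (-1.04 ± 0.53, adjusted p = 0.34), and 59 and 38 in line “4004”. Within each same-numbered pair of libraries both genes were lower at day 35, and with the replicate block both were called (-1.09, adjusted p = 0.023, and -1.07, adjusted p = 0.041).

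The soluble acyl-ACP desaturases, which act on chains still bound to the carrier protein, had no call among their 8 genes in the edgeR fit of all 8 libraries. Without replicate 3, Bra039178 was called higher in line “4004” at day 0 (1.5 on the log2 scale, adjusted p = 0.045) and Bra008632 for the difference between the lines' responses (1.51, adjusted p = 0.016). The FAB2 gene Bra004778, counterpart of the stearoyl-ACP desaturase that supplies oleic acid, had 1942, 1794 and 2538 normalized read counts at day 0 and 2355, 2331 and 4539 at day 35 in line “50” (log2 fold change 0.59 ± 0.39 SE, edgeR adjusted p = 0.48), while line “4004” had 1961 and 3171. Summed over the 3 FAB2 copies, the means of line “50” were 4031.7 ± 656.7 (SD, n = 3) and 5936.7 ± 2118.8, with replicate 3 the highest library on both days. Among the other 5 genes, the AT3G02630 copies Bra001057 (768, 758 and 807 at day 0) and Bra021427 (821, 806 and 806) were the only genes with a mean over 500 whose line “4004” library was above line “50” on both days: 1241 and 936 for Bra001057, and 1290 and 903 for Bra021427. Their log2 fold changes at day 0 were 0.62 ± 0.31 SE (edgeR adjusted p = 0.47) and 0.61 ± 0.32 (adjusted p = 0.48). The least counted, Bra039178, had 10 in line “4004” at day 0 and 4, 3 and 6 in line “50”.

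Among the 5 sphingolipid desaturase genes, the annotation lists a cytochrome b5 domain (PF00173), fused to the desaturase, for the 4 SLD genes. The remaining gene, Bra029531 (DES-1-like), is listed with PF00487 and PF08557. The SLD1 gene Bra007615 had 1181, 1120 and 1916 normalized read counts at day 0 and 1334, 1417 and 2501 at day 35 in line “50” (log2 fold change 0.33 ± 0.41 SE, edgeR adjusted p = 0.73), while line “4004” had 1287 and 1990. Bra003457 had 1146, 1203 and 1753 at day 0 and 1094, 1121 and 1593 at day 35, and 874 and 1582 in line “4004”. Replicate 3 was again the highest line “50” library. Between the lines at day 0, Bra003457 was at -0.72 ± 0.48 (adjusted p = 0.62), and at -1.15 under the replicate block, a call (adjusted p = 0.042). Bra014430, the third SLD1 copy, had 419, 370 and 498 at day 0 and 299, 300 and 323 at day 35, without overlap (-0.47 ± 0.25, adjusted p = 0.35).

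Between the days of line “4004” there is 1 library against 1, with no replicate check, so genes were counted by size. Of the 20 desaturase genes with a mean of at least 500 in these 2 libraries, none was 2-fold apart, where 10% of all genes at that level were, and the log2 ratios ran from -0.51 to 0.86 with a median of 0.34, against 0.09 for all genes at that level. With a mean of at least 50 there were 32 desaturase genes, of which 2 were 2-fold apart, both ADS1. Bra015472 went from 121 to 317 (2.62-fold) and Bra032439 from 67 to 169 (2.52-fold). The share of all genes 2-fold apart at that lower level was not counted, so this count cannot be set against a background. Neither 95% Poisson interval at day 0 (100.4 to 144.1 and 52.4 to 85.2) met the one at day 35 (284.1 to 353.9 and 145.3 to 196.6).

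Other lipid genes were counted by lists of Arabidopsis loci that were chosen with earlier results of these data known. For the comparison of days in line “50”, the share of all genes called was 3.92% (1.69% as lower), and 15.6% with the replicate block. Between days in line “50”, plastid fatty acid synthesis had 48 tested genes, 2 of them called lower, with a list median of -0.30. The 2 were Bra030254 (HAD1, -2.85 ± 0.34 on the log2 scale) and Bra008694 (BCCP2, a subunit of acetyl-CoA carboxylase, -2.71 ± 0.45). The 23 genes of electron donors to desaturases had no call and a median of -0.40. Of 36 genes of membrane glycerolipid assembly, 2 were called higher and 1 lower, with a median of -0.05. The higher ones were both copies of SFR2, the galactolipid-remodelling enzyme needed for freezing tolerance in Arabidopsis, Bra029584 (3.07 ± 0.28) and Bra040275 (2.95 ± 0.30), and the lower one was the galactolipid synthase gene MGD3, Bra037199 (-1.71 ± 0.31).

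Of the 42 genes of very-long-chain and wax synthesis, 4 were called lower at day 35 and the list median was -0.69. With the replicate block 15 were called lower. The 4 were 3 copies of KCS6, a condensing enzyme of wax synthesis (-1.23 to -1.53 on the log2 scale), and CER2, Bra013809 (-1.85 ± 0.35). Sterol synthesis had 1 of 27 called lower, Bra021916 (CYP710A1, -1.64 ± 0.34), and sphingolipid synthesis none of 24, with medians of -0.42 and 0.14. Of the 8 loci of the cold response list, only 3 matched a gene, giving 4 genes. Of these 4 genes, 3 were called higher, both COR15B copies and GOLS3, by 5.55 to 6.54 on the log2 scale. The fourth was not called, but the median of the 4 was 6.17, so it was not lower at day 35. The replicate block called 15.6% of all genes in either direction. In plastid fatty acid synthesis it called 5 of 48 lower, and in glycerolipid assembly 2 higher and 6 lower of 36. It called 2 of 27 lower in sterol synthesis, 3 of 24 in sphingolipid synthesis and 1 of 23 among electron donors. In the cold response it called 4 of 4 higher. Between the lines at day 0 and at day 35, edgeR without the block called none of the genes of these lists, where 1.49% and 0.446% of all genes were. With the block, those called at day 0 were 3 higher and 1 lower in wax, 1 lower in plastid fatty acid synthesis, 1 higher in sphingolipid synthesis and 1 higher in the cold response, and at day 35 there was 1 higher in wax. Of all genes, the block called 7.58% at day 0 and 0.952% at day 35. The lists' medians at day 0 were -0.81 for plastid fatty acid synthesis, -0.23 for electron donors, -0.22 for glycerolipid assembly, -0.43 for wax, -0.40 for sterol, -0.08 for sphingolipid synthesis and 1.55 for the cold response.

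Cell type markers moved with the day as well. The summed level of the 4 epidermis markers (FDH, ATML1, PDF2 and LTP1, all with reads) was 9820 to 11812 in line “50” at day 0 and 5252 to 5719 at day 35, and 10467 and 6075 in line “4004”. Each of the 4 was lower at day 35 in both lines, but by unequal amounts. In line “50”, FDH had 7179, 6120 and 6873 at day 0 and 2815, 2659 and 3557 at day 35. PDF2 had 1436, 1288 and 1191, then 1024, 973 and 916. In line “4004”, LTP1 went from 2981 to 546, FDH from 4259 to 3263 and PDF2 from 1475 to 1307. Of 10 tested epidermis genes, 1 was called lower at day 35 (FDH, Bra007766, -1.20 ± 0.24 on the log2 scale) and none was called between the lines at day 0. The 7 shoot meristem markers summed to 727 to 910 at day 0 and 746 to 1720 at day 35 in line “50”, so the days overlapped, and to 486 and 636 in line “4004”. In line “50”, 7 of 8 tested meristem genes were called higher at day 35, where 3.92% of all genes were called in either direction. The 7 called genes were copies of KNAT6, KNAT2, STM and KNAT1. Only 8 of the 12 meristem genes passed the filter, so the lack of calls for WUS, CLV3 and CLV1 was largely set by the filter. The KNAT6 copies Bra024592 and Bra024593 had the same log2 fold change (3.56 ± 0.48) and may not be separate signals. The root markers summed to 18 to 37 at day 0 and 47 to 68 at day 35 in line “50”, and to 35 and 19 in line “4004”. This sum covers 17 genes, and a gene without reads still adds 1 or more to it. In line “50”, 2 of 3 tested root genes were called higher at day 35, PYK10 (Bra001320, 2.12) and IRT1 (Bra013422, 3.14). Of 14 tested leaf genes none was called between days. The part of these shifts in the changes of the desaturase genes was not tested.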

How the data were processed

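TruSeq libraries of shoot RNA from lines “50” and “4004” were read from both ends on an Illumina HiSeq instrument. Reads were trimmed by the authors with SolexaQA and aligned with Bowtie2, at default settings, to a Brassica rapa reference gene set. How reads were then counted, and what was done with reads that fit several genes, is not given in the sources at hand. The raw counts deposited by the authors cover 38008 genes, are whole numbers and entered the tests unaltered. Their lowest value was 1 in every library, so 1 appears to have been added to each. The normalized read counts, a score that the authors made by dividing each raw count by a DESeq factor of its library and rounding, describe levels here. Those factors were set over the 8 libraries and others not analysed here. The deposited log2 ratios of group means are the authors' own comparisons and were not used. None of the gene IDs could be matched to the reference gene table at hand, so no position, length or sequence is given, and levels are not compared between genes.

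The test was the quasi-likelihood F test of edgeR 4.0.16 (R 4.3.3) with TMM factors and filterByExpr by group, which left 31191 genes. All 8 libraries entered a single model with a coefficient for each group. P-values were adjusted by Benjamini-Hochberg over all genes tested. The standard error is the size of the log2 fold change fitted without a prior count, divided by the square root of the F statistic. The log2 fold changes printed beside it include the prior count, so the 2 come from different estimates. The common biological coefficient of variation was 0.398. All 4 residual degrees of freedom lie in line “50”, whose spread is taken to hold for the single libraries of line “4004” too. The methods describe replicates as independent samples of pooled plants. Deviations of same-numbered line “50” libraries from their group means correlated at 0.55, 0.70 and 0.744 over 23440 genes for replicates 1, 2 and 3, so the numbers were taken as pairs and a fit with the replicate number as a block was run. Replicates 1 and 2 also correlated across numbers (0.546 and 0.657), and replicate 3 did not correlate positively with either (-0.718 to -0.577). These values set replicate 3 apart on both days. They do not show that replicates 1 and 2 pair by number, because deviations from a mean shared with replicate 3 move together in both.

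The alternatives were RLE factors, library totals, DESeq2 1.42.0, no filter and a stricter filter (50 counts in 2 libraries), 1 subtracted from each count, the block, fewer libraries in the fit, each replicate or library left out, and a mean of at least 500. Non-overlap on counts scaled to the library total was added after seeing the data. Intervals of single line “4004” libraries are exact Poisson 95% intervals of the reads. The desaturase genes and the lists were chosen with earlier results of these data known. Named with values were Bra027096, every called gene and the gene with the largest mean in each family. The others named were chosen after their values were seen.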

Additional observations from a re-analysis of the deposited data

How the results depend on the processing

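Counts of called desaturase genes moved as follows. Between days in line “50” (6 called) the count was 1 among genes with a mean of at least 500, and 0 to 10 over the replicates or libraries left out, at 0 without replicate 1 or 2 and at 10 without replicate 3. Between lines at day 0 (4 called) it was 1 with a mean of at least 500, 8 with DESeq2, 8 with the replicate block, 3 with the day 0 libraries alone (Bra001611 lost, -7.10, adjusted p = 0.059) and 0 to 15 over those left out. Between lines at day 35 (0 called) it was 0 to 5, and for the difference between the lines' responses (0 called) 0 to 3, over those left out. Over the whole table the calls ranged from 0 to 6352, 2 to 8712, 0 to 5084 and 0 to 2012 in these comparisons, so leaving out replicate 3, which stands apart, raised the number of calls, and leaving out either other replicate removed nearly all of them. Between days in line “4004” 2 desaturase genes were 2-fold apart with a mean of at least 50, a level at which all genes were not counted.

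Among named genes, directions turned only in comparisons where the edgeR fit of all 8 libraries did not call the gene. The FAD8 gene Bra028754, called between lines at day 0 without replicate 3, turned against replicate 3 alone, as given above. Between days, Bra007615 was at -0.06 without replicate 3 of day 35 and ranged from -0.06 to 0.69 over all libraries left out, and Bra010264 ranged from -0.14 to 0.18. Between lines at day 0, library totals gave 0.11 for Bra004778, 0.09 for Bra007615 and 0.07 for Bra010264. Over the libraries left out, Bra004778 ranged from -0.29 to 0.06 and Bra007615 from -0.37 to 0.15. The replicate block gave 0.24 for Bra010264 and 0.08 for Bra018348. It also gave -0.10 for the ADS2 copies Bra021736 and Bra022837, which were at 0.01 and 0.12 without it. The turns given here are not a full list. The cause was not tested. Beside the calls given in the report, the block changed no call of a named gene. With 1 library of line “4004” per day, differences of lower genes were limited by depth and by the spread of line “50”.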
